A study of Homo sapiens with 34 samples.

Results

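The clustered protocadherin genes are the protein-coding genes of chromosome 5 whose symbols begin with PCDHA, PCDHB or PCDHG followed by a number, a letter or C. By that rule 53 genes were members, out of 15817 protein-coding genes of chromosomes 1 to 22 and X that could be given a start and 19970 protein-coding genes in all. The members were 13 alpha genes (PCDHA1 to PCDHA13), 16 beta genes, 12 gamma A genes, 7 gamma B genes and 5 C-type genes (PCDHAC1, PCDHAC2, PCDHGC3, PCDHGC4 and PCDHGC5). With margins of 1 kb they occupied 729 kb, at chr5:140785140-141513975 (hg38), in the order alpha, beta, gamma.

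The libraries analysed here mapped where 3 proteins lie on chromatin in U2OS, an established human osteosarcoma cell line. They were made with CUT&RUN, in which an antibody directs a nuclease to cut the DNA around its target. The targets were SMARCA1, an ATPase of the ISWI family of nucleosome remodellers; OGG1, the DNA glycosylase that removes oxidised guanine; and Orc6, a subunit of the origin recognition complex. All cells received an siRNA for 72 h, were synchronised by a double thymidine block and were released for 3 h before collection, so that non-treated cells (NT) also carried an siRNA. The control siRNA is named siGl3 and the siRNA against Orc6 is siOrc6; treated cells (H2O2) received 5 mM hydrogen peroxide for 30 min. SMARCA1 and OGG1 were each mapped in siGl3 NT, siGl3 H2O2, siOrc6 NT and siOrc6 H2O2 cells, and Orc6 in siGl3 NT and siGl3 H2O2 cells, with 2 libraries in each of these 10 groups. Of 34 samples, 14 were not analysed here. They were the IgG controls, SMARCA5 libraries, Orc6 libraries made with another antibody, and SMARCA1 libraries of cells with an siRNA named siOrc2. Each of the 20 libraries was represented by a list of called regions, which gives presence or absence and no read counts, so the sequencing depth is unknown. No RNA or protein was measured in these lists, and the Orc6 knockdown could not be checked.

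Clustered protocadherins are cell-surface adhesion proteins, best known in neurons, where each cell uses its own choice of isoforms as an identity label. Every alpha and gamma gene contributes a variable first exon with its own promoter, which is spliced to exons shared by the whole family at its far end, whereas each beta gene is a single exon. Promoter choice is known to involve DNA methylation, the looping factor CTCF with cohesin, and a conserved promoter element built around the letters CGCT; C-type genes are known to be regulated apart from the others.

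To show what the starts look like, 300 bases (250 before the start and 50 after it) are given for 6 members, taken from RefSeq (GRCh38.p14) and written 5′ to 3′ on the + strand. They are the alpha gene with a region in the most libraries (PCDHA4, chr5:140806818-140807117) and an alpha gene with none (PCDHA7, chr5:140834019-140834318), the leading beta gene (PCDHB5, chr5:141134956-141135255), a gamma A gene with none (PCDHGA1, chr5:141330264-141330563), and 2 neighbouring C-type genes, the leading member (PCDHGC3, chr5:141475716-141476015) and one with none (PCDHGC4, chr5:141484780-141485079). Capitals mark CGCT or its reverse complement AGCG.
PCDHA4: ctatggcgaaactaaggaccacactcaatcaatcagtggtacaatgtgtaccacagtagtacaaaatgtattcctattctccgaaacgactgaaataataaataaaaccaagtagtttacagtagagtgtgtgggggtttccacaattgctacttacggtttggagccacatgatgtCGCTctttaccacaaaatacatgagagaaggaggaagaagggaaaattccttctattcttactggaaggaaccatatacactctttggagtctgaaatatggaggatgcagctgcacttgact
PCDHA7: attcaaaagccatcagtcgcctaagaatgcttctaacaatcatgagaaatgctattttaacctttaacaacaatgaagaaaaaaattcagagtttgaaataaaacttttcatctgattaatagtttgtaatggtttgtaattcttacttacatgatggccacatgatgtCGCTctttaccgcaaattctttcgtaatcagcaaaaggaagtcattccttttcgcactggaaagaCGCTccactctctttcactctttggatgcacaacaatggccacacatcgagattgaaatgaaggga
PCDHB5: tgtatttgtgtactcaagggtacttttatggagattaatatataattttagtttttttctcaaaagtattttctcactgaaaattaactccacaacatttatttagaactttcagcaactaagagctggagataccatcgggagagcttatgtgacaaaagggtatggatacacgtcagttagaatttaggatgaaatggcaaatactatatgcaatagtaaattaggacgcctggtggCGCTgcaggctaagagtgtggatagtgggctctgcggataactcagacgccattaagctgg
PCDHGA1: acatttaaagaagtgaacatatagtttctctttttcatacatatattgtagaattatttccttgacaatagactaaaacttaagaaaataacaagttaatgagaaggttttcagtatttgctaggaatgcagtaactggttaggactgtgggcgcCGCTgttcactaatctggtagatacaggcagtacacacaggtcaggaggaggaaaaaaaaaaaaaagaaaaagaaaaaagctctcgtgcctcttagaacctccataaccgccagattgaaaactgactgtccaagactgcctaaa
PCDHGC3: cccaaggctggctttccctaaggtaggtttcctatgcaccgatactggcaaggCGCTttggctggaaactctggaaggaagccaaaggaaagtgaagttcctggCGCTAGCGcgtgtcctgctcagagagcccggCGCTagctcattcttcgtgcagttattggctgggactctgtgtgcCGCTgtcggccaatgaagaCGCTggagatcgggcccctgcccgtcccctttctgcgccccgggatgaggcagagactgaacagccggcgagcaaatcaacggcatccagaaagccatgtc
PCDHGC4: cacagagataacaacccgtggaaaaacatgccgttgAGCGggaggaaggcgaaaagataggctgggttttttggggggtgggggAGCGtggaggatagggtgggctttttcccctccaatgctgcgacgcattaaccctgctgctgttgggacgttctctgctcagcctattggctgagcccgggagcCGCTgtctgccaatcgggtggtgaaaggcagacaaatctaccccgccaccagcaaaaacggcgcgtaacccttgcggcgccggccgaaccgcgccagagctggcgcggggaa

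CGCT was present on either strand in 46 of the 47 member windows that RefSeq provided (97.9%), with PCDHA9 the exception, and in 81.0% of all 15811 such promoter windows. GGNGGCAG, part of the CTCF recognition sequence, was found on neither strand in the 47 member windows and in 18.6% of all promoter windows. Around CGCT, PCDHA4 and PCDHA7 shared the 23-base run GCCACATGATGTCGCTCTTTACC, which began 85 bases before the start of PCDHA4 and 93 before that of PCDHA7 and was in no other promoter window of the 15811. PCDHA4 had a region at its start in 9 libraries and PCDHA7 in 0. PCDHB5 and PCDHB2 shared GGTGGCGCTGCAG, which was in 10 of 14 beta windows and 11 of all windows; the 10 beta genes with it had regions in 0 to 5 libraries (median 0). These shared runs were looked for after the sequences had been seen and describe letters only, since no binding of any factor to them was measured.

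A member was counted as occupied in a library when a called region overlapped the 1 kb on either side of its start. Most members were occupied nowhere: 31 of 53 (58.5%) had no region at the start in any of the 20 libraries, against 14.0% of all 15817 genes. The median member was occupied in 0 libraries and the median gene in 11. Over all combinations of member and library, 90 of 1060 (8.49%) were occupied, against 51.4% for all genes. In each of the 20 libraries the occupied share of members was below that of all genes, which ran from 7.08% to 79.7%. SMARCA1 siGl3 NT replicate 1 was the shortest list, and OGG1 siOrc6 NT replicate 2 was a longer list than its replicate (33435 against 18759 regions) with fewer occupied gene starts. Both had 0 members occupied, so the count of 31 is the same with and without them by construction. The counts are descriptions. When both gene ends were used 31 became 13, mainly because a region at the shared gamma 3′ end then counts for every gamma gene. PCDHB9, a beta gene, also left the count, through its own far end in 1 library.

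**Figure D1:**
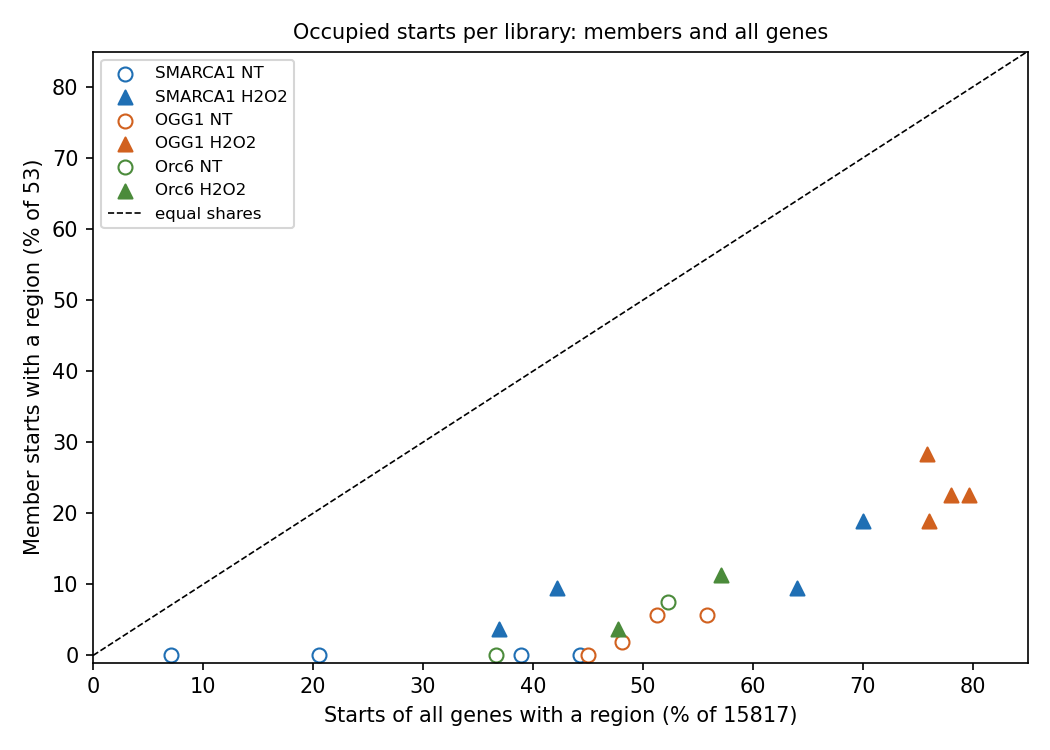
Each point is 1 library, with the percent of all 15817 gene starts that had a region on the horizontal axis and the percent of the 53 member starts on the vertical axis. Open circles are NT, triangles are H2O2 and colours are antibodies; all 20 points lie below the dashed line of equal shares.

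The families differed widely. C-type genes were occupied in 36 of 100 gene and library combinations (36%), alpha genes in 35 of 260 (13.5%), beta genes in 16 of 320 (5%), gamma A genes in 2 of 240 (0.833%) and gamma B genes in 1 of 140 (0.714%). PCDHGC3 led the members with 11 libraries, followed by PCDHA4 and PCDHAC1 with 9 each and PCDHA11, PCDHAC2 and PCDHGC5 with 8 each. PCDHB5 had 5, and PCDHA5, PCDHA6, PCDHA8, PCDHA12 and PCDHB11 had 4 each. PCDHB1 and PCDHB14 had 2 each. The 8 members seen in 1 library were PCDHA1, PCDHA2, PCDHB6, PCDHB10, PCDHB12, PCDHGA4, PCDHGA10 and PCDHGB6. The remaining 31 members were 5 alpha genes, 9 beta genes, 10 gamma A genes, 6 gamma B genes and PCDHGC4; by position the first of them in alpha was PCDHA3, in beta PCDHB2, in gamma A PCDHGA1 and in gamma B PCDHGB1. Thus 12 members (22.6%) were occupied in 4 or more libraries, against 76.7% of all genes, and 19 gamma A and gamma B genes together contributed none of the 12.

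**Figure D2:**
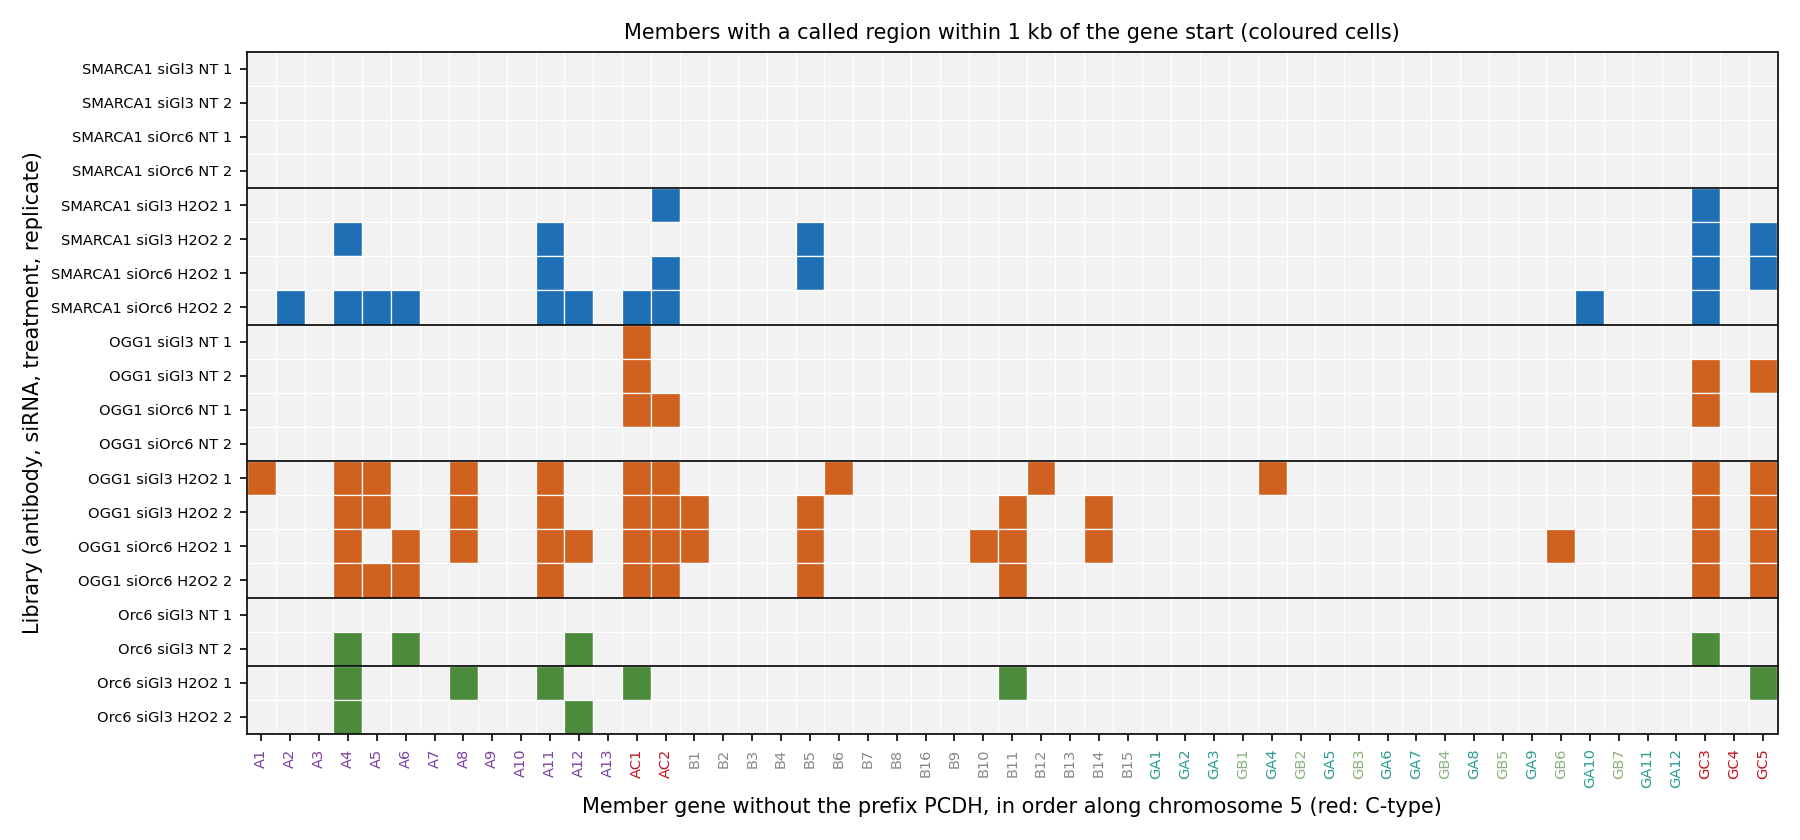
Rows are the 20 libraries and columns the 53 members in order along chromosome 5; a coloured cell is a member with a region within 1 kb of its start. The gamma A and gamma B columns are nearly empty, the 4 SMARCA1 NT rows are empty, and the OGG1 H2O2 rows hold 10 to 15 coloured cells each.

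Where a member was occupied, the strongest stretch of the region lay close to the start. This is partly built in, because a region had to overlap the 1 kb on either side of the start. The median region was 2039.5 bp wide. The values below are not given for occupied starts of all genes, so they do not set members apart. Of the 90 occupied combinations, 88 had a region covering the start itself and 88 had the strongest stretch within 1 kb of it. For 71 of 90 this stretch lay downstream of the start, at a median of 178 bp. For PCDHA4 the median was 153 bp downstream, for PCDHA11 239 bp, for PCDHAC1 403 bp and for PCDHGC3 129 bp. For PCDHAC2 it was 203 bp upstream (-203), and for PCDHGC5 it was 21 bp upstream (-21). Ranked by the total signal of the authors' caller, the median over the 90 combinations was at the 33.0th percentile of its list and the highest at the 76.4th. C-type starts had a median percentile of 48.4, alpha starts 29.9 and beta starts 19.6.

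Base composition separated the C-type windows from the rest. The median G and C content was 61.8% in 4 C-type windows, 36% in 11 alpha, 40.8% in 14 beta, 38.3% in 11 gamma A and 48.3% in 7 gamma B windows, against 62.7% in all promoter windows. PCDHGC4 was as rich in G and C as the other C-type genes and was occupied in 0 libraries. The observed to expected ratio of CpG, a measure of how far the dinucleotide has been retained, had a median of 0.593 in members and 0.762 in all windows. Within the class of 0.25 to 0.5 the 14 members had a median of 1 library, with 6 of them in none, and all 2099 windows had a median of 5, with 26.2% in none. Within the class of 0.5 to 0.75 the 21 members had a median of 0 libraries, with 16 of them in none, and all 2942 windows of that class had a median of 12 libraries, with 12.6% in none. From 0.75 to 1 the medians were 1 library for 11 members and 14 for all 6333 windows. Sequence repeated between promoters was limited: 6 of 47 member windows (PCDHB8, PCDHB13, PCDHGB4, PCDHGB5, PCDHGB6 and PCDHGB7) held any 30-base run found in another gene's window, at most 27.3% of the runs in a window. How far base composition or mappability bears on the occupied shares was not tested.

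**Figure D3:**
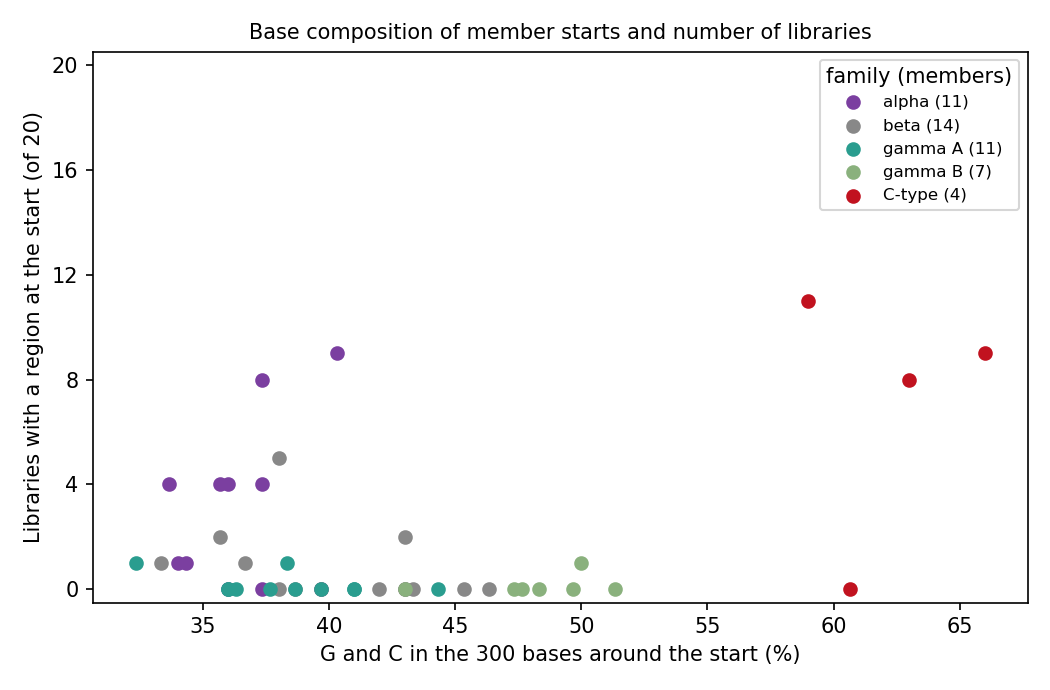
Each point is 1 of the 47 members with a RefSeq window, by the percent of G and C in its 300 bases (horizontal axis) and the number of libraries with a region at its start (vertical axis, of 20); colours are families. The 4 C-type points lie apart to the right, 3 of them between 8 and 11 libraries and PCDHGC4 at 0.

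Because alpha genes share one 3′ end (chr5, position 141012347) and gamma genes another (position 141512975), regions were also counted by position, each region once. The 20 lists held 163 regions overlapping the cluster, from 0 to 27 per library, with 0 in SMARCA1 siGl3 NT replicate 1 and in Orc6 siGl3 NT replicate 1. Overlapping regions of all lists were chained into places, so 1 place can hold regions that do not overlap each other. This gave 36 separate places, of which 16 were seen in 1 library and 9 in 8 or more. Of those 9 places 6 lay on member starts (PCDHA4, PCDHA11 with PCDHA12, PCDHAC1, PCDHAC2, PCDHGC3 and PCDHGC5). The other 3 were not at a member start. One lay between the alpha and beta families (chr5:141037734-141043668, 10 libraries), in a stretch where enhancers of the alpha family are known but which the gene table leaves without an annotation. Another lay at the start of TAF7 (chr5:141318552-141323444, 10 libraries), a TFIID subunit gene between the beta and gamma arrays. The last lay around the shared gamma 3′ end (chr5:141504732-141529114, 18 libraries). It chained 28 regions over 24383 bp and reached past that end, beyond the cluster.

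**Figure D4:**
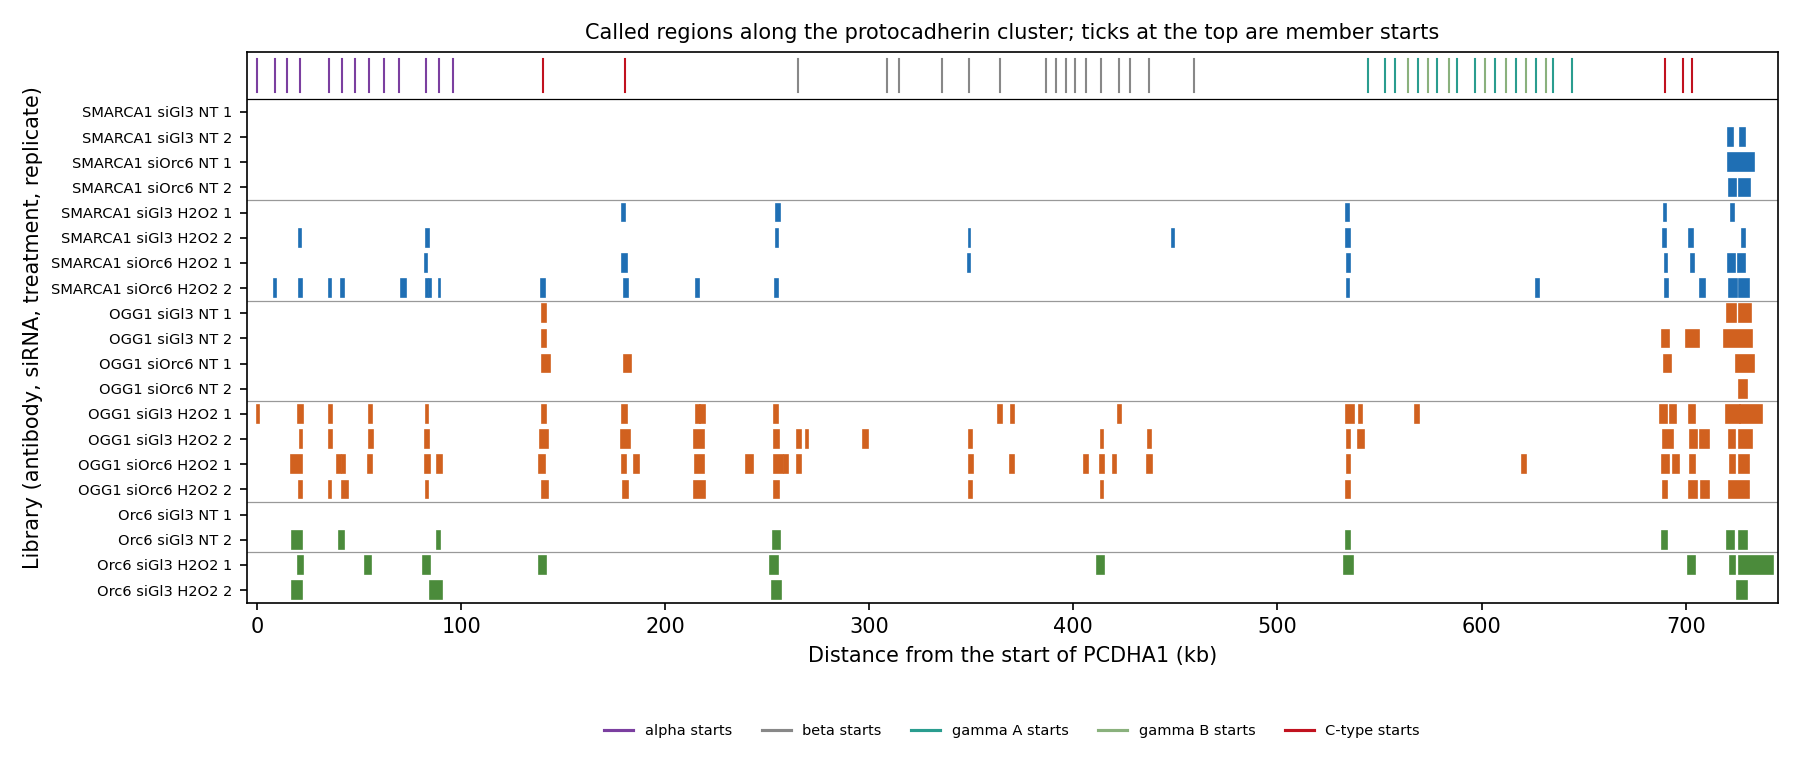
Each bar is 1 called region, drawn to scale by its distance from the start of PCDHA1 in kb (horizontal axis) for each of the 20 libraries (vertical axis); ticks at the top are the 53 member starts. Bars stack at a few places, above all at the right end, and the gamma A and gamma B array is nearly bare.

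Along the cluster the density of regions varied steeply. A region was assigned to the part that held its midpoint. Summed over the 20 lists, the gamma A and B array had 2.06 regions per 100 kb (3 regions over 145 kb that hold 19 starts). The beta array had 22 regions over 200 kb, alpha genes 1 to 13 had 27.1, the alpha C-type starts 33.6 and the gamma C-type starts 139 per 100 kb. The shared gamma 3′ part had 79.5 per 100 kb and the shared alpha 3′ part 17.4. Flanks of 100 kb held 59 regions on the left and 67 on the right. Regions over the gamma end with a midpoint beyond the cluster were counted in the right flank, not in the shared gamma 3′ part. The density of that part is therefore lower than a count by overlap would give. For scale, a single list held on average 48904 regions over the 3.03 Gb span and 8.15 in the 729 kb of the cluster. The densities above are instead summed over the 20 lists. A region lay within 1 kb of the shared gamma end in 17 of 20 libraries and within 1 kb of the shared alpha end in 0. The nearest end of DIAPH1, the next gene, is 2046 bp from the gamma end, so a region there cannot be assigned to either gene. Counting either end of each gene would raise the occupied members to between 22 and 35 in those 17 libraries.

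By length covered, the cluster was not set apart as its starts were. Called regions covered 0 to 9.46% of it, which in each of the 20 libraries was a smaller share than over the whole span of chromosomes. Against 3886 windows of the same length, however, the cluster stood in the middle of the order, with a median of 45.2% of windows covered less (range 0 to 65.3%). In 10 kb bins, 39 of 74 cluster bins (52.7%) had no region in any list, against 44.2% of 302948 bins in all. Bins in 8 or more libraries were 17.6% of the cluster and 21.1% of all.

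Other genes were given by lists. Of 13 neighbours outside the families 12 could be given a start, with a median of 15 libraries (9 to 18). Of 12 protocadherins encoded elsewhere 10 could, with a median of 7.5 libraries (0 to 17); PCDH1 and PCDH7 had 17 each, PCDH17 and PCDH19 0 each. Of 20 genes for choice and looping factors, signalling partners and cleaving enzymes 15 could, with a median of 18 libraries (7 to 20), CTCF having 19.

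The first comparison asked where SMARCA1 regions changed with H2O2. In the 4 SMARCA1 NT libraries no member start was occupied. In the H2O2 libraries the numbers of members were 2 and 5 with siGl3, 5 and 10 with siOrc6, so the groups did not overlap. The mean was 5.5 ± 3.32 members (SD, n = 4). Over all genes the occupied share was 27.7 ± 17.1% in NT and 53.3 ± 16.2% in H2O2 libraries (SD, n = 4 each), and those groups overlapped with the siRNAs pooled. Within each siRNA the all-gene shares did not overlap either. With siGl3 they were 7.08 to 20.6% in NT and 37.0 to 42.2% in H2O2 libraries. With siOrc6 they were 38.9 to 44.3% and 64.1 to 70.0%. PCDHGC3, the first of the gamma C-type genes, was occupied in all 4 H2O2 libraries and in 0 of 4 NT libraries. This was the pattern of all against none, which 398 of 15817 genes showed (2.52%); 1 of 53 members showed it. The reverse, none of H2O2 and all of NT, held for 0 members and 0.0695% of genes. The two-sided Fisher exact p of PCDHGC3 was 0.0286, the smallest that 4 against 4 allows. Its Benjamini-Hochberg adjusted p was 0.103, over the 1472 genes whose total could reach a p of 0.05. No gene passed an adjusted p of 0.05, while 409 genes (2.59%) had an unadjusted Fisher exact p below 0.05. PCDHA11 and PCDHAC2 were occupied in 3 of 4 H2O2 libraries each, and PCDHA4, PCDHB5 and PCDHGC5 in 2 each. A further 6 members (PCDHA2, PCDHA5, PCDHA6, PCDHA12, PCDHAC1 and PCDHGA10) were occupied in 1, all of them in siOrc6 H2O2 replicate 2. In total 12 of 53 members were in more H2O2 than NT libraries (22.6%) and 0 in fewer, against 60.2% and 2.24% of all genes. By position, 2 bins of 10 kb had all H2O2 and no NT libraries, one at TAF7 and one at PCDHGC3 (0.623% of all bins; adjusted Fisher exact p = 0.110).

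SMARCA1 H2O2 lists held 35381 to 69927 regions and NT lists 6992 to 14791. With every list cut to its strongest 6992 regions, PCDHGC3 no longer showed the pattern, which then held for 0.0948% of all genes. The difference in covered share of the cluster turned from 1.56 to -0.17 percentage points with that cut and was 0.20 with equal covered bases. Without siOrc6 H2O2 replicate 2 it was 0.96. The part of list length in the comparison was not tested further. The SMARCA1 NT regions inside the cluster all lay in the shared gamma 3′ part, in 3 of 4 libraries.

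OGG1 regions at member starts were also more frequent after H2O2. The numbers of members were 1 and 3 in siGl3 NT, 3 and 0 in siOrc6 NT, 12 and 12 in siGl3 H2O2 and 15 and 10 in siOrc6 H2O2 libraries. NT and H2O2 libraries did not overlap, with means of 1.75 ± 1.5 and 12.3 ± 2.06 members (SD, n = 4 each). The occupied share of all genes did not overlap either, at 50.1 ± 4.63% and 77.4 ± 1.81% (SD, n = 4 each). The 7 occupied combinations in NT libraries were all at C-type starts: PCDHAC1 in 3 of 4 libraries, PCDHGC3 in 2, and PCDHAC2 and PCDHGC5 in 1 each. After H2O2 these 4 C-type genes were occupied in all 4 libraries. The alpha genes went from 0 of 52 combinations to 18 of 52 (34.6%) and the beta genes from 0 of 64 to 13 of 64 (20.3%), while 19 gamma A and gamma B genes had 2 in all after H2O2.

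PCDHA4 and PCDHA11 were each occupied in all 4 OGG1 H2O2 libraries and in 0 of 4 NT libraries (Fisher exact p = 0.0286, adjusted p = 0.0354). The adjustment ran over the 1474 genes whose total could reach a p of 0.05, and 2 of these were members. Both members passed, as did 1188 of the 1474 genes, which is 7.51% of all 15817. The 2 of 53 members are not above that share. With 4 against 4 libraries no smaller p can be reached, and the call was lost when any of 6 of the 8 libraries was left out: both siGl3 H2O2 (adjusted Fisher exact p = 0.0642 without replicate 1 and 0.0670 without replicate 2), both siOrc6 H2O2 (0.0615 and 0.0629) and both siGl3 NT libraries (0.0536 and 0.0515). Both genes remained all against none in each of these. The same held when regions were reduced to their strongest segment (adjusted Fisher exact p = 0.0632) or when regions over 20 kb were left out (0.0540). With the upper 50% of regions by signal PCDHA4 was in 2 and PCDHA11 in 1 of 4 H2O2 libraries. With libraries paired by siRNA and by replicate number, which the labels give as batch, an exact sign test on 4 pairs cannot go below 0.125. PCDHB5 and PCDHB11 were occupied in 3 of 4 H2O2 and 0 of 4 NT libraries, as were PCDHA5 and PCDHA8. In total 20 of 53 members were in more H2O2 than NT libraries (37.7%) and 0 in fewer, against 51.1% and 0.474% of all genes.

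By position, 8 bins of the cluster were covered in all 4 OGG1 H2O2 and in 0 of 4 NT libraries (adjusted Fisher exact p = 0.0363; 7.65% of all bins). They held the starts of PCDHA3 with PCDHA4, PCDHA5 with PCDHA6, PCDHA11 and PCDHB12, the shared alpha 3′ part, the place between alpha and beta (2 bins) and TAF7. A start inside such a bin was not always occupied. Of the 4 H2O2 libraries, PCDHA3 was occupied in 0, PCDHB12 in 1, PCDHA6 in 2 and PCDHA5 in 3. Regions at PCDHB11 reached into the bin of PCDHB12. The covered share of the cluster was 1.57 ± 1.11% in NT and 7.22 ± 1.66% in H2O2 libraries (SD, n = 4 each). OGG1 H2O2 lists were longer, 73301 to 132408 regions against 17813 to 33435. With every list cut to its strongest 17813 regions, neither gene nor any cluster bin kept the pattern, which then held for 0.480% of all genes, and the difference in covered share turned from 5.65 to -0.84 points.

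Orc6 gave few member regions. Members occupied were 0 and 4 in siGl3 NT and 6 and 2 in siGl3 H2O2 libraries, so the groups overlapped. PCDHA4 was occupied in both H2O2 libraries and in NT replicate 2. No member was all against none in either direction (353 genes, 2.23%, and 55 genes, 0.348%), and with 2 against 2 the smallest Fisher exact p is 0.333, so no gene could pass. Differences of 1 library were the largest, upward for PCDHA4, PCDHA8, PCDHA11, PCDHAC1, PCDHB11 and PCDHGC5 and downward for PCDHA6 and PCDHGC3. In NT replicate 2 the 4 members were PCDHA4, PCDHA6, PCDHA12 and PCDHGC3. The covered share of the cluster was 1.44 ± 2.03% in NT and 3.33 ± 1.19% in H2O2 libraries (SD, n = 2 each), a difference of 1.90 points, smaller than the spread of the NT libraries. It was 1.06 without H2O2 replicate 1, 0.46 without NT replicate 1 and 3.33 without NT replicate 2. No cluster bin was all against none (2.16% of all bins upward, 0.259% downward). Leaving out 1 library sets 1 against 2, where a single list decides the pattern. The range of member counts is given with the processing alternatives below, and no conclusion is drawn from it.

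Knockdown of Orc6 was compared within each antibody, with NT and H2O2 libraries pooled in each arm. For SMARCA1, 8 of 53 members were in 1 library more of siOrc6 than of siGl3 cells (15.1%) and 0 in fewer, against 61.0% and 3.16% of all genes. These were PCDHA2, PCDHA5, PCDHA6, PCDHA11, PCDHA12, PCDHAC1, PCDHAC2 and PCDHGA10. For 6 of the 8, all but PCDHA11 and PCDHAC2, siOrc6 H2O2 replicate 2 was the 1 SMARCA1 library that held them. PCDHGC3 was the only member whose total could reach a p of 0.05. It was in all H2O2 and no NT libraries, so it was in 2 of 4 libraries of each arm by construction. Both siRNA arms had 0 members without H2O2. No member was all against none, against 606 genes (3.83%) in the direction of siOrc6 and 7 (0.0443%) in the other. No gene passed an adjusted Fisher exact p of 0.05, while 613 genes (3.88%) had an unadjusted p below 0.05. No cluster bin was all against none (0.408% of all bins with siOrc6 alone, 0.153% with siGl3 alone). The 2 cluster bins that could reach a p of 0.05 were in all H2O2 and no NT libraries, so they too were fixed by construction. All 4 SMARCA1 siOrc6 lists, and none of the SMARCA1 siGl3 lists, are marked in their names as submitted again, and this mark and the knockdown cannot be told apart.

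For OGG1, 7 members were in more (13.2%) and 8 in fewer (15.1%) siOrc6 than siGl3 libraries, against 16.3% and 20.2% of all genes. The largest difference was at PCDHA6, occupied in 2 of 4 siOrc6 and 0 of 4 siGl3 libraries. Occupied combinations were 13.2% in both arms, and 63.2% with siOrc6 and 64.3% with siGl3 over all genes. No gene of the 15817 was all against none in either direction (0%), passed an adjusted Fisher exact p of 0.05 or had an unadjusted one below 0.05. Only 1474 genes, 2 of them members (PCDHA4 and PCDHA11), had a total that could reach a p of 0.05. Of these, 1188 genes, with both members, were in all H2O2 and no NT libraries. They were in 2 of 4 libraries of each siRNA arm by construction, so the test could not show a difference for them. No cluster bin was all against none, in either direction (0% and 0.0033% of all bins). The 8 cluster bins that could reach a p of 0.05 were likewise in all H2O2 and no NT libraries. The covered share differed by -0.12 points, and the sign changed when any of 4 libraries was left out, giving 0.67 without siOrc6 NT replicate 1, 1.23 without siOrc6 NT replicate 2, 0.51 without siGl3 H2O2 replicate 1 and 0.86 without siGl3 H2O2 replicate 2.

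Between the antibodies, SMARCA1 libraries had 0 to 10 occupied members and OGG1 libraries 0 to 15, so the ranges overlapped. Of 53 members 19 were in fewer SMARCA1 than OGG1 libraries (35.8%) and 2 in more (PCDHA2 and PCDHGA10), against 74.2% and 2.86% of all genes. The largest difference was at PCDHAC1, the first alpha C-type gene, occupied in 1 of 8 SMARCA1 and 7 of 8 OGG1 libraries. The only SMARCA1 library with it was siOrc6 H2O2 replicate 2, and the only OGG1 library without it was siOrc6 NT replicate 2. Its Fisher exact p was 0.0101 (7.34% of all genes had an unadjusted p below 0.05) and its adjusted p was 0.166. No member was all against none (5 genes, 0.0316%, none in SMARCA1 and all in OGG1), and no gene passed an adjusted p of 0.05. No cluster bin was all against none (0% and 0.0297% of all bins). SMARCA1 and OGG1 libraries were also paired by siRNA, treatment and replicate number (the replicate block). An exact sign test over 8 pairs gave p = 0.0313 for PCDHAC1. Its adjusted p was 0.0480 over the 511 genes that could pass. The siOrc6 H2O2 and siOrc6 NT pairs of replicate 2 were alike and did not count. All pairs come from replicate numbers 1 and 2. By that rule 1 of 53 members and 333 of 15817 genes (2.11%) passed. The adjusted Fisher exact p of PCDHAC1 was also below 0.05 without SMARCA1 siOrc6 H2O2 replicate 2 (0.0444) or without OGG1 siOrc6 NT replicate 2 (0.0488). Each is the 1 library of its antibody that goes against the difference, so leaving it out widened the difference by construction. The share of all genes passing without it is not given, so these calls do not set PCDHAC1 apart. The covered share of the cluster differed by -3.06 points, and by 0.068 with equal list length and 0.10 with equal covered bases. Whether the response to H2O2 differed between antibodies was not tested.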

How the data were processed

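CUT&RUN regions of SMARCA1, OGG1 and Orc6 in U2OS cells were taken as the authors deposited them, 1 list per library on hg38. Per the submitters' processing notes, SEACR 1.1 was among the tools, with Bowtie2 and bedtools; neither their roles nor their settings are stated in the sources used here. Each deposited row holds a region with its total signal and highest signal and no read counts, so the signal was used only to rank regions within a list. Further deposited tables of regions were read for positions only.

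Gene positions, strands and promoter windows came from RefSeq tables of GRCh38.p14. Strand was given for 15811 genes; 6 members without a window (PCDHA3, PCDHA13, PCDHB6, PCDHB11, PCDHGA12 and PCDHGC5) were given their left end, as the other members have. The planned fallback, for a table without strands, was both ends of all 19970 genes, and it was run as an alternative. Libraries with and without a region within 1 kb of each start were compared with a two-sided Fisher exact test, adjusted by Benjamini-Hochberg over genes whose total could reach a p of 0.05; 10 kb bins were tested likewise. The test was run on simulated data in which chosen genes were set to all of 1 arm and none of the other. Apart from these genes both simulated arms had the same expected occupancy, so unequal list lengths were not covered. Replicate numbers are batch numbers in the labels and so pair libraries; the labels do not say whether replicates were separate cultures, and p-values then measure only the spread between these libraries. Genes were named where 1 arm was wholly occupied and the other not at all, otherwise by the largest difference (at most 8), plus the most and least occupied member of each family. Members, lists and tests were chosen with earlier results of these data known. Computation used scipy 1.17.1 and pandas 2.3.3 under Python 3.11.15, and plots matplotlib 3.10.9.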

Additional observations from a re-analysis of the deposited data

Results flagged for a closer look

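The authors' deposited table of SMARCA1 windows labelled up for siOrc6 H2O2 entered no comparison above. Of its 12359 windows 4 lay in the cluster, at the starts of PCDHAC2 and TAF7 and at 2 places of the shared gamma 3′ part. The matching authors' deposited table labelled not significant had 3 of 31524, at PCDHA11, between alpha and beta, and at PCDHGC3. The sources used here do not say which libraries these tables compare.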

How the results depend on the processing

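Presence or absence in 2 libraries a group limits these results, and depth is unknown. For members occupied throughout 1 arm and nowhere in the other, SMARCA1 H2O2 went from 1 to 0 with both gene ends, equal list length, equal covered bases or the upper 50% of regions by signal; OGG1 H2O2 went from 2 to 0 with equal length or bases and to 1, a different gene (PCDHGC3), with the upper 50%, where the share of all genes rose to 13.3%; Orc6 H2O2 went from 0 to 1 with a window of 2 kb. OGG1 members passing the test went from 2 to 0 with the strongest segment, equal length, equal bases, no regions over 20 kb or the replicate block (PCDHA4 and PCDHA11 stayed at 4 of 4 against 0 of 4 with the strongest segment and without regions over 20 kb), and to 1, again PCDHGC3, with the upper 50%. SMARCA1 against OGG1 went from 0 to 1 with the replicate block, by which 2.11% of all genes passed; the block changed no other call. Covered-share differences (points) with equal length and equal bases were -0.17 and 0.20 for SMARCA1 H2O2, -0.84 and -0.73 for OGG1 H2O2, -0.20 and -0.0036 for Orc6 H2O2 and 0.068 and 0.10 for SMARCA1 minus OGG1 (-3.06 as reported). With the upper 50% they were 3.35 for OGG1 and -0.54 for Orc6; the siOrc6 difference was -0.054 for SMARCA1 with equal bases and 0.073 for OGG1 with equal length. With equal length or bases the bins of all against none fell to 0 for SMARCA1 H2O2 and OGG1 H2O2, and siOrc6 in SMARCA1 gained 1 with equal length. Members in no library were 13 with both ends and 53 with equal list length, alternatives that were added for this count after seeing the data. Leaving out 1 library gave ranges of 1 to 2 members for SMARCA1 H2O2 (2 without siGl3 H2O2 replicate 1 or 2), 2 to 4 for OGG1 H2O2 (4 without siGl3 H2O2 replicate 1), 0 to 5 for Orc6, 0 to 3 passing members for OGG1 H2O2, 0 to 1 passing for SMARCA1 against OGG1, -1.84 to 1.23 points for the siOrc6 covered share of OGG1, 0.96 to 1.92 for the H2O2 covered share of SMARCA1, 0.46 to 3.33 for that of Orc6, and 0.49 (without siOrc6 H2O2 replicate 2) to 1.56 for the siOrc6 covered share of SMARCA1. Where no share of all genes stands beside a count in this paragraph, the count describes members only and does not set them apart. For Orc6, leaving out 1 library sets 1 against 2, so a single list decides the member counts and no conclusion is drawn from them. The causes were not tested.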

Other observations

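In the authors' deposited table labelled up for SMARCA1 siOrc6 NT, 2 of 7045 windows lay in the cluster, both in the shared gamma 3′ part, and the matching table labelled not significant had 0 of 5317. The authors' deposited Orc6 list of the whole series had 1 of 13557 regions in the cluster, over the shared gamma end (chr5:141506817-141515995), and none at a member start.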
